A study of Mus musculus with 21 samples.

Results

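The 9 genes described here, P2ry12, P2ry13, Tmem119, Cx3cr1, Fcrls, Sall1, Siglech, Gpr34 and Olfml3, mark homeostatic microglia, the resting state of the resident macrophages of the brain and retina. They were taken by name from a table of raw read counts for 17164 genes, and all 9 were in it. RNA was sequenced from retinal cells that had been sorted to collect ganglion cells, the projection neurons of the retina, so the 9 genes are markers of another cell type in these libraries. The mice were C57BL/6, 6 to 7 weeks old in the submitters' sample sheet, and were sampled 3 days after the optic nerve had been crushed.

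The libraries of 5 groups were compared, and every group carried the nerve crush. The controls (n = 4) had received a guide RNA without a target, and the other groups had received guide RNAs against ATF3 (n = 5), ATF4 (n = 2), CEBPG (C/EBP gamma, n = 4) or CHOP (encoded by Ddit3, n = 5). These are 4 transcription factors of the bZIP class that act in stress responses of injured cells. Libraries were made with SMART-Seq v4 from 5000 to 10000 sorted cells. The sources used here do not give the source of Cas9, the gate of the sort or whether each library is a separate animal. The p-values therefore rest on the variation among these libraries, which may be technical. In the sample sheet the controls are male and in batch 2, both ATF4 knockouts are in batch 1, and the libraries of the other 3 knockouts are female and in batch 3. Controls were never in a batch with any knockout. In every comparison against control, batch and knockout cannot be told apart, and outside ATF4 neither can sex. Comparisons among ATF3, CEBPG and CHOP stay within a single batch and sex.

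Microglia keep the homeostatic programme under signals such as TGF-beta and the ligands of the receptor Csf1r, with Sall1, PU.1 (Spi1) and MEF2 factors among the regulators of its genes. On activation by injury or neurodegeneration the programme is known to fall while a disease-associated set, with Apoe, Lpl and Spp1 among its genes, rises. The purine receptors P2ry12 and P2ry13 sense ADP, Cx3cr1 binds the neuronal chemokine fractalkine, and Gpr34 binds lysophosphatidylserine. Fcrls is a scavenger receptor of the Fc receptor-like family, Siglech a sialic acid-binding lectin, Tmem119 a membrane protein, Olfml3 a secreted matrix protein and Sall1 a zinc finger transcription factor.

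Counted reads ran from 6401446 to 11752828 per control library, 25267560 to 32776378 in the ATF3, 11929692 to 12404601 in the ATF4, 9000250 to 29810987 in the CEBPG and 14272784 to 31543917 in the CHOP knockouts. The transcript of the targeted gene, in CPM (reads scaled to the TMM-adjusted library total), lay below every control in all libraries of the ATF3 (Atf3, 30.6 to 48.0 against 104 to 125), ATF4 (Atf4, 148 to 160 against 216 to 387) and CHOP groups (Ddit3, 57.4 to 72.6 against 75.4 to 109). Cebpg in the libraries labelled CEBPG knockout (49.2 to 92.4 CPM) overlapped the controls (74.6 to 93.6 CPM), with a log2 fold change of -0.16 (SE 0.16, edgeR adjusted p = 0.491), so the transcript level does not check that label, which is used here as given. The sheet lists ATF4 replicate 1 as female, although it held 61.5 CPM of the Y-linked Ddx3y and 0.260 CPM of Xist. A further library, titled as a control and given a CHOP knockout genotype, entered no comparison. The 10 genes that mark ganglion cells took a mean of 0.0468% to 0.0625% of the reads per group, with Pou4f2 of these at 0 in the CEBPG group, and 9 general microglia genes (Csf1r, Aif1, Ctss, C1qa, C1qb, C1qc, Cd68, Ly86 and Mpeg1) took 0.381% to 0.653%. In these bulk libraries fewer microglia and less RNA per microglial cell cannot be told apart.

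In the mm10 build with the GENCODE annotation, 4 of the 9 genes lie on chromosome 3. P2ry12 (59216272 to 59262871) and P2ry13 (59207892 to 59210882) are neighbours on the minus strand with 5389 bases between them, and both lie within the span of Med12l on the opposite strand. Fcrls (87250758 to 87263738) and Olfml3 (103722222 to 103738001) lie further along, on the minus strand. Gpr34 (X, 13632089 to 13640858) lies on the plus strand within the span of Cask, which is on the minus strand, with no shared exon bases. Cx3cr1 (chromosome 9, 119901616 to 120069879, minus strand) has a long span that touches 9 other genes. Tmem119 is on chromosome 5 (113793729 to 113800516, minus strand), Sall1 on chromosome 8 (89027235 to 89044162, minus strand) and Siglech on chromosome 7 (55768178 to 55778925, plus strand), with no overlapping gene. The sources used here do not say whether reads were counted by strand. If strand was not used, exonic reads of P2ry12, which shares 9 exon bases with Med12l, and of Cx3cr1, which shares 78 with Gm33858, could include reads of those genes.

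The 250 bases before the start of the 2 neighbours P2ry12 and P2ry13 are shown because their levels moved together within groups, as described further on. They are from RefSeq (GRCm38.p6), on the minus strand, at chr3:59262986-59263235 for P2ry12 and chr3:59210883-59211132 for P2ry13. Capitals mark GAGGAAG, a motif bound by PU.1, searched on both strands.
P2ry12: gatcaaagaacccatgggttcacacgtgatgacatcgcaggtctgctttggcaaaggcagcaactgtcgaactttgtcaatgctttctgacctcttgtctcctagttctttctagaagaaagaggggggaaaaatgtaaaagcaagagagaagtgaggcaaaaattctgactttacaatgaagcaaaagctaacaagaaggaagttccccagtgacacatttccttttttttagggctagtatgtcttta
P2ry13: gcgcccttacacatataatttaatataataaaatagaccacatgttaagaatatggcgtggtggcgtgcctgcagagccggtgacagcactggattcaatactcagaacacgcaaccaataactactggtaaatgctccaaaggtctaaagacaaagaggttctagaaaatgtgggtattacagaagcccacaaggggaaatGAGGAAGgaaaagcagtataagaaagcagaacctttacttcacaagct
The motif occurs once in the P2ry13 window, beginning 48 bases before the start, and not in the P2ry12 window. RefSeq promoter windows were matched for 7 of the 9 genes, with 9 windows in all, and 2 of the 7 genes, P2ry13 and Fcrls, held it. Among 32851 windows of the same length 10.6% held it. The Fcrls site is shown because Fcrls differed most between groups. The Cx3cr1 site is shown because it is the only match among the 7 genes to the pattern searched for MEF2. That pattern allowed any base at its central positions, and 3.2% of all windows held it. Capitals mark the matched letters, at chr3:87263652-87263678 for Fcrls and chr9:120068344-120068373 for Cx3cr1, both on the minus strand.
Fcrls: agtctgtaaaGAGGAAGgacgtttgct
Cx3cr1: gtcacagcatCTAAAGATAGggtaccacac
None of the 7 genes held the AP-1 motif TGANTCA (6.75% of all windows), the cyclic AMP response element TGACGTCA (1.55%) or the C/EBP-ATF composite motif TGATGNAA (3.45%) on either strand. These are matches of letters in a short window and say nothing of binding.

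All 9 genes were measured well above the filter on low counts. Fcrls in a control, at 61 reads, was the lowest count, and Cx3cr1 in an ATF3 knockout, at 9840 reads, was the highest. Per kilobase of exon, Tmem119 had the highest level in the controls (103 ± 28.7 CPM per kb, SD, n = 4), followed by Cx3cr1 (54.8 ± 12.9) and P2ry12 (48.4 ± 8.06). The lowest levels per kilobase were those of Fcrls (4.98 ± 0.931) and Sall1 (3.25 ± 0.814). In the ATF3 knockouts Fcrls reached 73.7 ± 5.62 CPM per kb (n = 5) and stood second to Tmem119 (102 ± 4.69), above Cx3cr1 (69.0 ± 1.65). The highest group mean exceeded the lowest 14.8-fold for Fcrls, and between 1.23-fold (Sall1) and 1.95-fold (Gpr34) for the other 8 genes.

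**Figure D1:**
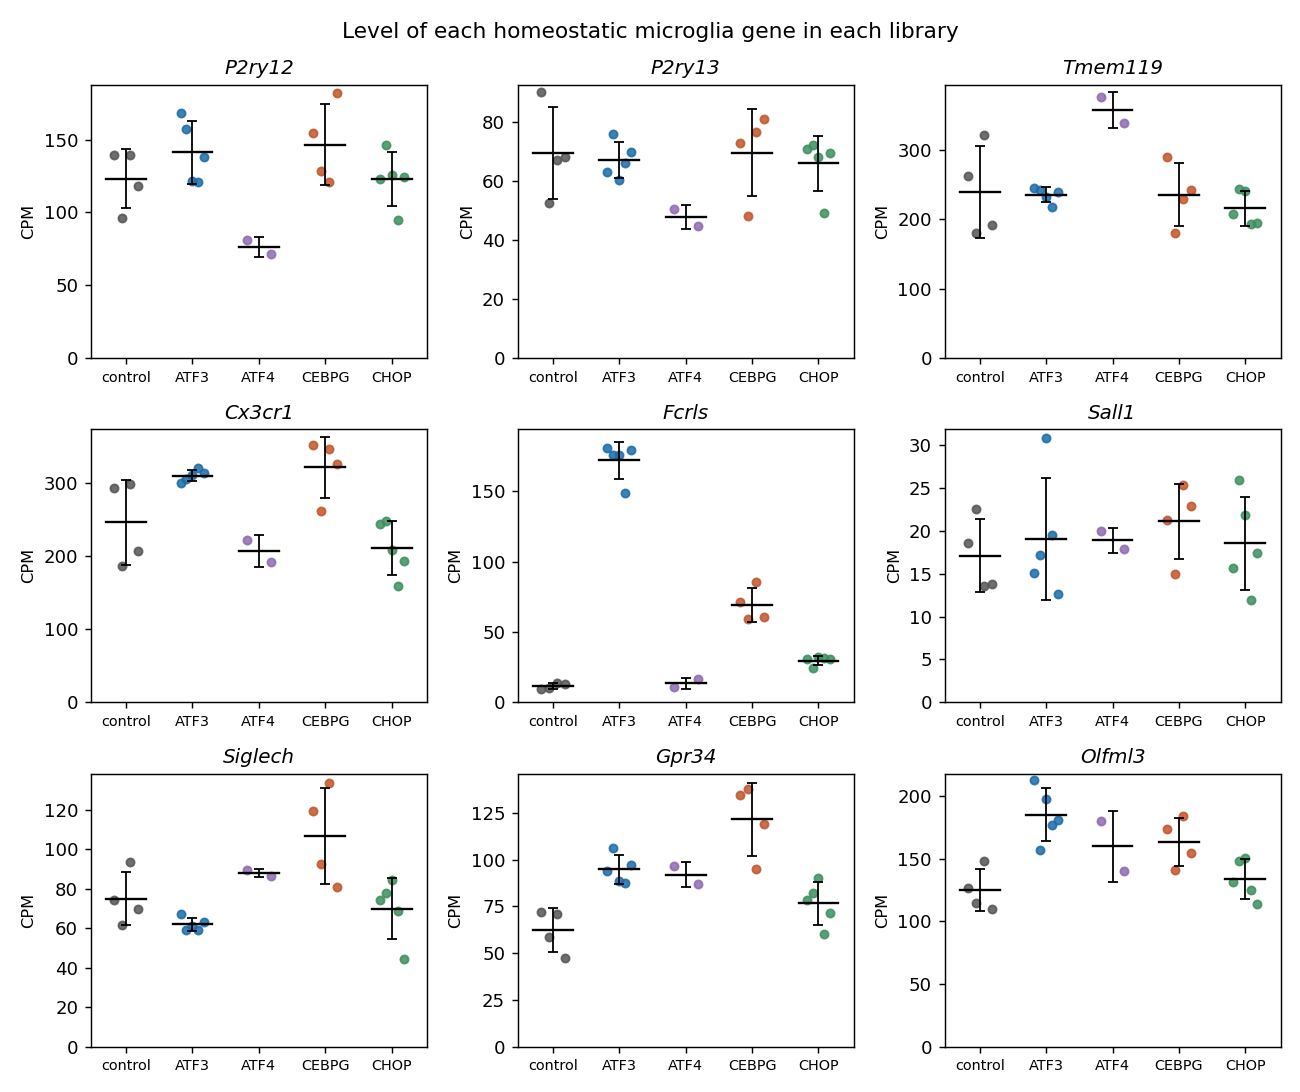
Level of each of the 9 genes in each library of the 5 groups, in CPM from 0 (1 panel per gene, points for libraries, black lines and bars for mean and SD, n = 4, 5, 2, 4 and 5). Fcrls separates the groups, from 9.72 to 14.1 CPM in the controls to 149 to 180.5 CPM in the ATF3 knockouts, and the other 8 genes spread over narrower ranges.

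Fcrls, the scavenger receptor, changed most. It was at 9.72, 9.88, 14.1 and 12.8 CPM in the controls and at 10.9 and 16.3 CPM in the ATF4 knockouts. In the ATF3 knockouts it was at 180.5, 176, 176, 149 and 179 CPM, in the CEBPG knockouts at 59.3, 85.4, 61.0 and 71.3 CPM, and in the CHOP knockouts at 30.6, 24.3, 31.9, 31.3 and 30.6 CPM. The ATF3, CEBPG and CHOP groups overlapped neither each other nor the controls, while the ATF4 libraries lay within or just above the control range. Against control, Fcrls rose 14.7-fold with ATF3 (log2 fold change 3.88, SE 0.17, edgeR adjusted p = 2.97e-13), 5.92-fold with CEBPG (2.57, SE 0.17, adjusted p = 3.18e-11) and 2.54-fold with CHOP (1.35, SE 0.16, adjusted p = 4.40e-07). The ATF4 difference did not pass the test (0.22, SE 0.20, 95% interval -0.21 to 0.65, adjusted p = 0.450).

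Within the shared batch and sex, Fcrls also differed between each pair of knockouts. It was 2.48-fold lower in the CEBPG than in the ATF3 knockouts (-1.31, SE 0.15, adjusted p = 1.27e-06), and 5.79-fold lower with CHOP than with ATF3 (-2.53, SE 0.15, adjusted p = 1.59e-10). The latter had the smallest p of all 16797 genes in that comparison. Fcrls was 2.33-fold higher in the CEBPG than in the CHOP knockouts (1.22, SE 0.15, adjusted p = 1.62e-06). A fit of that batch alone gave -1.31, -2.54 and 1.23 for the 3 pairs. All 6 Fcrls calls held with any single library of the compared groups left out.

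Gpr34, the lysophosphatidylserine receptor, was higher in 3 of the 4 knockouts. It was at 72.2, 59.0, 71.2 and 47.5 CPM in the controls, and at 94.0, 106, 88.5, 87.7 and 97.1 CPM in the ATF3 knockouts. In the CEBPG knockouts it was at 138, 94.8, 119 and 134 CPM, and in the ATF4 knockouts at 96.7 and 87.2 CPM. Every library of these 3 knockouts lay above every control. The log2 fold changes were 0.60 for ATF3 (SE 0.14, adjusted p = 0.00227), 0.96 for CEBPG (SE 0.15, adjusted p = 2.61e-05) and 0.56 for ATF4 (SE 0.18, adjusted p = 0.0216). In the CHOP knockouts it was at 78.6, 82.3, 90.5, 60.2 and 71.8 CPM, and the difference from control did not pass (0.29, SE 0.14, 95% interval -0.01 to 0.60, adjusted p = 0.121). Cask, whose span contains Gpr34, was higher than control in the ATF3 (0.57, adjusted p = 0.000466), CEBPG (0.52, adjusted p = 0.00197) and CHOP knockouts (0.74, adjusted p = 2.73e-05) and was at 0.09 for ATF4 (adjusted p = 0.707). Its part in the Gpr34 counts was not tested. Between knockouts, Gpr34 was higher with CEBPG than with CHOP (0.66, SE 0.14, adjusted p = 0.00113). Between CEBPG and ATF3 it did not pass (0.36, SE 0.14, adjusted p = 0.0762), though it did when CEBPG replicate 8 was left out (0.46, adjusted p = 0.0279).

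Cx3cr1, the fractalkine receptor, differed among the knockouts. It was at 293, 186, 299.5 and 208 CPM in the controls, at 223 and 192 CPM in the ATF4, and at 262, 347, 327 and 353 CPM in the CEBPG knockouts. In the ATF3 knockouts it was at 301, 306, 312, 320.5 and 314 CPM, and in the CHOP knockouts at 245, 248, 209, 159 and 194 CPM. The ATF3 libraries lay within a narrow range above every control, but the difference did not pass (log2 fold change 0.33, SE 0.14, adjusted p = 0.0770), nor did that of CEBPG (0.38, SE 0.15, adjusted p = 0.0504). Without control replicate 4 or 7 the ATF3 difference passed (0.42 and 0.44, adjusted p = 0.0341 and 0.0272). That of CEBPG passed without either (0.48 and 0.49, adjusted p = 0.0231 and 0.0174) and without CEBPG replicate 6 (0.47, adjusted p = 0.0185). Cx3cr1 was lower in the CHOP than in the ATF3 knockouts (-0.56, SE 0.13, adjusted p = 0.0224) and higher in the CEBPG than in the CHOP knockouts (0.61, SE 0.14, adjusted p = 0.00223), with no overlap in either pair.

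The ADP receptors P2ry12 and P2ry13 had their lowest values with ATF4. P2ry12 was at 139, 96.4, 139 and 118 CPM in the controls and at 81.1 and 71.3 CPM in the ATF4 knockouts, both below every control. It fell by 0.70 on the log2 scale (SE 0.20, edgeR adjusted p = 0.00937, n = 2 against 4), a call lost without ATF4 replicate 3 (-0.61, adjusted p = 0.102). P2ry13 was at 90.3, 52.6, 67.2 and 68.2 CPM in the controls and at 50.7 and 44.9 CPM in the ATF4 knockouts, also below every control, with a difference that did not pass (-0.55, SE 0.22, adjusted p = 0.0585) but did without control replicate 5 (-0.66, adjusted p = 0.0267). In the ATF3, CEBPG and CHOP knockouts neither gene passed against control or in any pair of knockouts. Their log2 differences from control ran from -0.01 to 0.25 for P2ry12 and from -0.08 to 0.00 for P2ry13. For P2ry13 the 95% intervals reached no further than -0.43 and 0.37.

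Tmem119, the membrane protein used to mark resident microglia, was at 262, 180, 322.5 and 192 CPM in the controls and at 376 and 339.5 CPM in the ATF4 knockouts. Both ATF4 libraries exceeded every library of the other 4 groups. It rose by 0.58 on the log2 scale (SE 0.19, adjusted p = 0.0195), a call lost without ATF4 replicate 1 or 3 (adjusted p = 0.156 and 0.0515) or control replicate 5 or 8 (adjusted p = 0.0645 and 0.0611). In the other knockouts Tmem119 had group means of 216 to 236 CPM and log2 differences of -0.15 to -0.02 from control, none of which passed. The intervals of those 3 differences lay between -0.46 and 0.31.

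Siglech, the lectin, was highest with CEBPG. It was at 74.6, 61.9, 93.5 and 69.8 CPM in the controls, at 92.4, 134, 80.8 and 119 CPM in the CEBPG knockouts, and at 67.3, 59.3, 61.2, 59.4 and 63.0 CPM in the ATF3 knockouts. The CEBPG libraries lay above every ATF3 library and overlapped the controls. Siglech was higher with CEBPG than with ATF3 (log2 fold change 0.78, SE 0.17, adjusted p = 0.00154), CHOP (0.61, SE 0.17, adjusted p = 0.00876) and control (0.51, SE 0.18, adjusted p = 0.0307). The call against control was lost without CEBPG replicate 8 or 10 (adjusted p = 0.159 and 0.0806) or control replicate 4, 5 or 8 (0.0557, 0.0996 and 0.0765). Siglech is also known in plasmacytoid dendritic cells. Together 4 markers of those cells took at most 0.00236% of the reads of any of the 20 libraries. That highest share was in CEBPG replicate 8, which also had the highest Siglech level. The 4 markers took 0.000406% to 0.000509% in the controls and 0.000600% to 0.00236% with CEBPG. None of the 4 was called in CEBPG against control, and their part in the Siglech counts was not tested.

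Olfml3, the secreted matrix protein, was at 126, 115, 148 and 110.3 CPM in the controls and at 212, 157, 198, 177 and 181 CPM in the ATF3 knockouts. All 5 ATF3 libraries lay above every control (log2 fold change 0.57, SE 0.13, adjusted p = 0.00109). In the CEBPG knockouts it was at 141, 184, 155 and 174 CPM (0.39, SE 0.13, adjusted p = 0.0254), which no longer passed when CEBPG replicate 8 or 10 was left out (adjusted p = 0.114 and 0.0604) or control replicate 5 or 8 (0.0710 and 0.0832). It was lower with CHOP (131, 148, 151, 125 and 114 CPM) than with ATF3 (-0.47, SE 0.12, adjusted p = 0.0319). With control replicate 7 left out, Olfml3 was also called higher with ATF4 (0.45, adjusted p = 0.0323), and with CEBPG replicate 6 left out it was called higher with CEBPG than with CHOP (0.37, adjusted p = 0.0389). Sall1, the transcription factor that helps to define microglial identity, passed in none of the 7 comparisons. Its group means ran from 17.1 to 21.1 CPM, and single libraries from 11.97 to 30.9 CPM.

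Counted by comparison, the number of the 9 genes called is given beside the share of all genes called. In the ATF3 knockouts 3 of 9 were higher than control (Fcrls, Gpr34 and Olfml3) and none lower, where 33.4% of the 16797 tested genes were called (18.6% higher and 14.8% lower). In the ATF4 knockouts 2 were higher (Tmem119 and Gpr34) and 1 lower (P2ry12), against 31.3% of all genes called, 16.6% higher and 14.6% lower. The Gpr34 call there was lost without ATF4 replicate 1 or 3 (adjusted p = 0.164 and 0.0526) or control replicate 8 (0.0689). In the CEBPG knockouts 4 were higher (Fcrls, Gpr34, Siglech and Olfml3), against 33.4% of all genes called, 18.3% higher and 15.0% lower. In the CHOP knockouts only Fcrls was called (higher), against 33.5% of all genes called, 18.1% higher and 15.4% lower. The median log2 difference of the 9 genes was 0.19, 0.22, 0.38 and -0.01 in that order, and that of all genes was 0.06, 0.00, 0.06 and 0.01. These 4 comparisons share their controls.

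Among the 3 knockouts of the shared batch, CEBPG differed from ATF3 in 2 of the 9 genes (Fcrls lower and Siglech higher), against 20.4% of all genes called, 10.2% higher and 10.1% lower. CEBPG differed from CHOP in 4 (Fcrls, Gpr34, Cx3cr1 and Siglech, all higher), against 26.7% called, 13.5% higher and 13.2% lower. CHOP differed from ATF3 in 3 (Fcrls, Cx3cr1 and Olfml3, all lower), where only 2.26% of all genes were called (0.756% higher and 1.51% lower). Of those 3, Cx3cr1 no longer passed when ATF3 replicate 7, 8 or 9 was left out (adjusted p = 0.0538, 0.0574 and 0.0567) or CHOP replicate 4 or 5 (0.0851 and 0.0710). Olfml3 no longer passed on leaving out ATF3 replicate 5, 7, 8 or 9 or CHOP replicate 1, 4 or 5, at adjusted p from 0.0550 to 0.111.

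**Figure D2:**
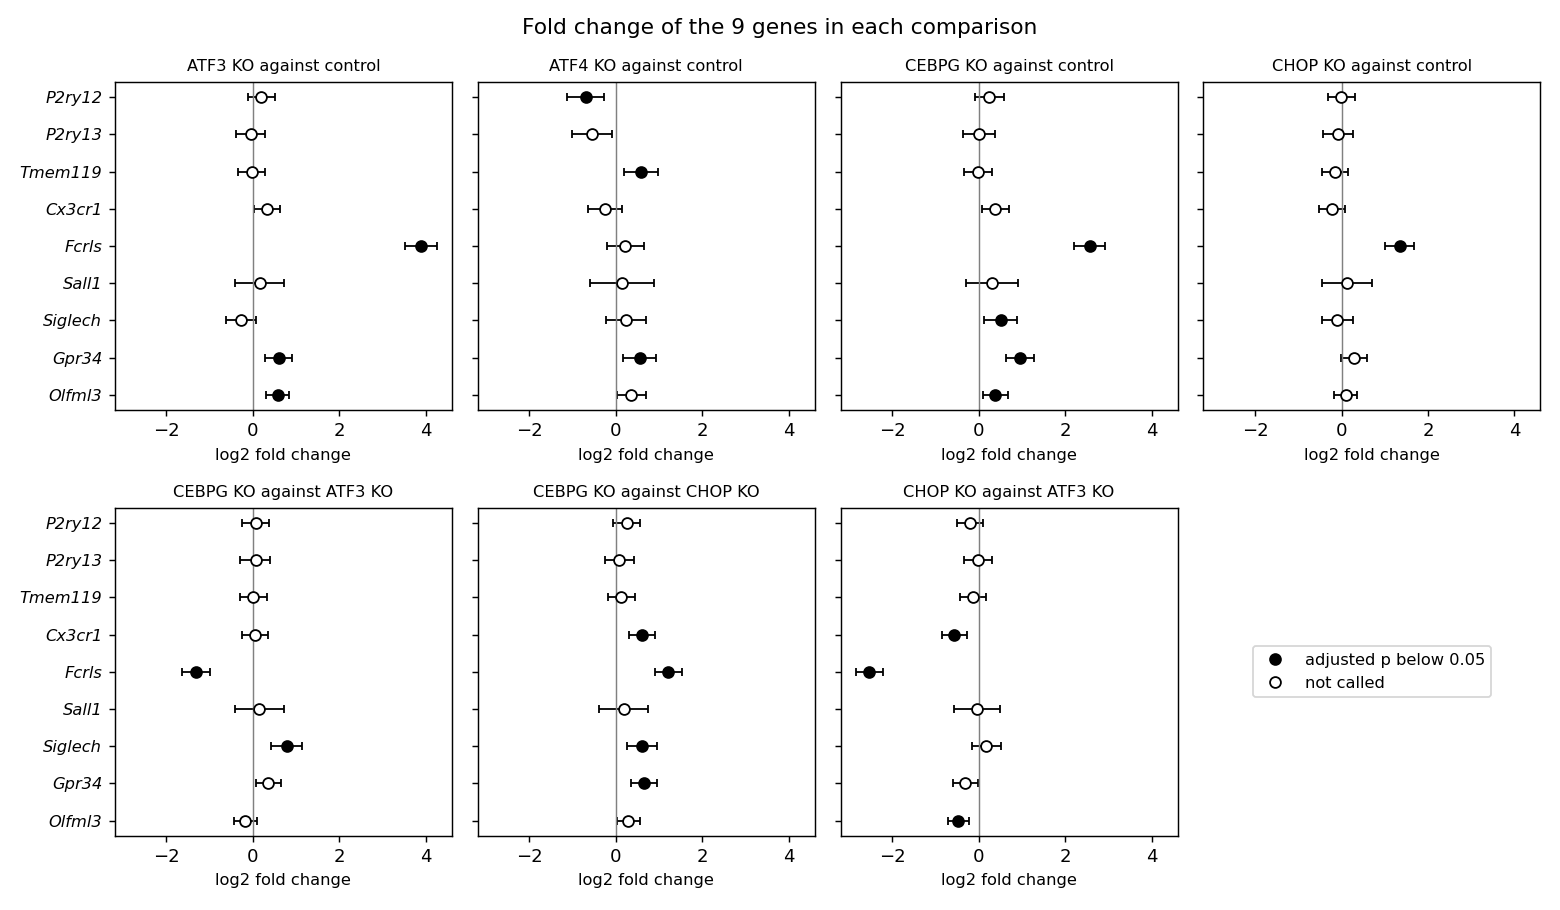
Log2 fold change of each gene in each of the 7 comparisons, with 95% intervals derived from the edgeR test statistic, as described under the processing. Filled points have an adjusted p below 0.05 and open points do not. Fcrls lies furthest from 0 in all comparisons other than ATF4 against control.

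The 9 genes together took 0.0948% ± 0.0199 of the reads in the controls (SD, n = 4), 0.128% ± 0.00499 with ATF3, 0.104% ± 0.00703 with ATF4, 0.130% ± 0.0103 with CEBPG and 0.0945% ± 0.0125 with CHOP. The 9 general microglia genes took 0.486%, 0.473%, 0.584%, 0.653% and 0.381% in the same order. The homeostatic genes were therefore also set against these reads. That reference was not constant itself. Of its 9 genes, 4 rose and 1 fell with CEBPG, and none rose and 5 fell with CHOP, against control. Whether it tracks the number of microglia was not tested. Per 1000 reads of the general genes, the homeostatic genes without Fcrls averaged 193 reads in the controls, 235 with ATF3, 178 with ATF4, 188 with CEBPG and 243 with CHOP. The ATF3 (230 to 239) and CHOP libraries (227 to 278) lay above all controls (186 to 208). The CEBPG libraries (180 to 195) and ATF4 libraries (161 and 196) overlapped them.

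On this scale Fcrls was at 2.37 ± 0.421 reads per 1000 in the controls, 36.3 ± 1.92 with ATF3, 2.42 ± 1.20 with ATF4, 9.38 to 13.7 in the 4 CEBPG libraries and 8.08 ± 1.93 with CHOP. CEBPG and CHOP (5.40 to 10.2) now overlapped, and ATF3 (33.3 to 38.2) stayed apart from every other group. An edgeR fit with libraries scaled to the general microglia genes moved the median of all genes. Against control it came to 0.10 for ATF3, to -0.24 for ATF4, to -0.31 for CEBPG and to 0.40 for CHOP. Between knockouts it came to -0.40, -0.78 and 0.36 for CEBPG against ATF3, CEBPG against CHOP and CHOP against ATF3. The differences given next are read against those shifts. Under that scaling Fcrls remained called in ATF3 (3.94, adjusted p = 1.32e-10), CEBPG (2.22, adjusted p = 1.03e-07) and CHOP (1.77, adjusted p = 1.51e-06) against control, but not between CEBPG and CHOP (0.45, adjusted p = 0.0654). The higher values of Cx3cr1, Gpr34 and Siglech with CEBPG than with CHOP turned to -0.13, -0.07 and -0.11, none of which was called, while P2ry12 (-0.49), P2ry13 (-0.68), Tmem119 (-0.63) and Olfml3 (-0.45) were called lower, as were 50.9% of all genes. With ATF4, P2ry12 (-0.94), P2ry13 (-0.80) and Cx3cr1 (-0.49) were called lower than control, against 15.3% of all genes, and Tmem119 (0.36, adjusted p = 0.101) and Gpr34 (0.31, adjusted p = 0.287) were no longer called. Siglech (0.16) and Olfml3 (0.03) were no longer called higher with CEBPG than in the controls, and Tmem119 was called lower there (-0.36, adjusted p = 0.0370), against 23.9% of all genes. With ATF3, Cx3cr1 (0.41, adjusted p = 0.0205) became called higher than control, against 16.0% of all genes. With CHOP, Gpr34 (0.68), Olfml3 (0.48) and P2ry12 (0.39) joined Fcrls among the genes called higher than control, against 29.5% of all genes. The median of the 9 there was 0.39 and that of all genes 0.40.

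Calls within batch 3 moved too under that scaling. Siglech was no longer called higher with CEBPG than with ATF3 (0.37, adjusted p = 0.0793). There Fcrls (-1.72), Tmem119 (-0.42), Cx3cr1 (-0.36) and Olfml3 (-0.59) were called lower, against 25.0% of all genes. In CHOP against ATF3, Cx3cr1 (-0.23, adjusted p = 0.200) and Olfml3 (-0.14, adjusted p = 0.439) were no longer called, and Fcrls remained lower (-2.17, adjusted p = 1.18e-06).

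**Figure D3:**
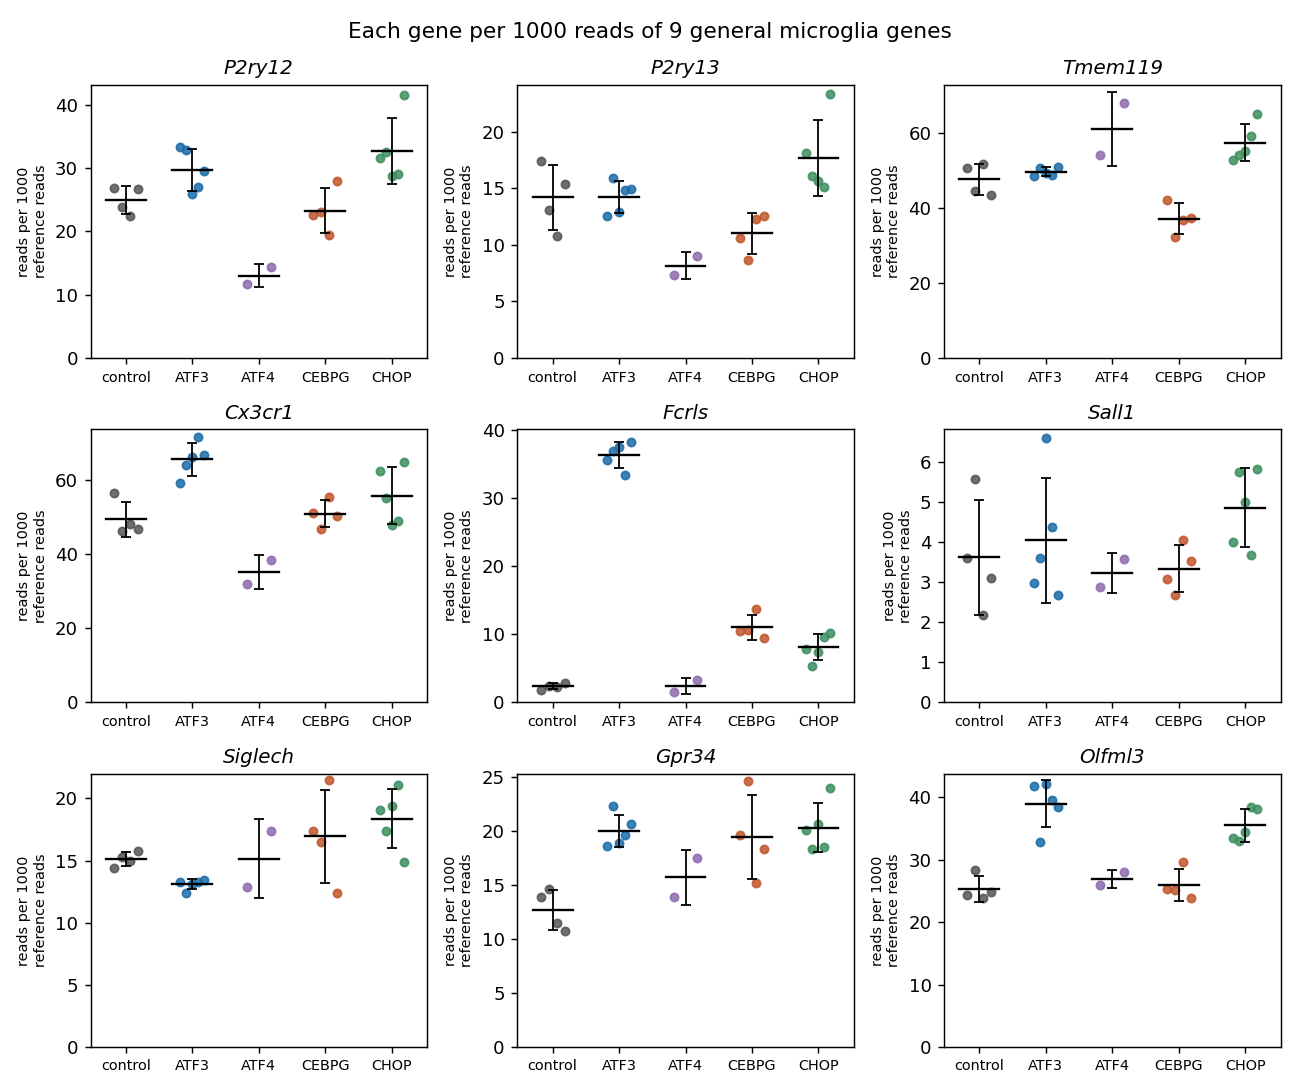
Reads of each gene per 1000 reads of the 9 general microglia genes, from 0, in each library (points) with mean and SD (black). Fcrls in the ATF3 knockouts (33.3 to 38.2) stands apart from the other groups, all of which lie at or below 13.7.

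Genes of other groups were counted in the same comparisons, on the TMM scale. Some genes are in more than 1 list and are counted in each. Of all genes, 18.6% were called higher and 14.8% lower than control with ATF3, and 16.6% and 14.6% with ATF4. With CEBPG these shares were 18.3% and 15.0%, and with CHOP 18.1% and 15.4%. The counts here and in the next paragraphs are to be read beside them. Of 23 measured genes enriched in microglia over other macrophages or brain cells, 7 rose and none fell with ATF3, 6 rose and 2 fell with ATF4, 15 rose and none fell with CEBPG, and 1 rose and 1 fell with CHOP, all against control. Their medians were 0.36, 0.15, 0.65 and -0.01. Sparc, a matrix glycoprotein, rose with ATF3 (0.75, adjusted p = 0.000143) and ATF4 (0.97, adjusted p = 0.000111). Selplg, the selectin ligand, rose with ATF3 (0.50), ATF4 (0.64) and CEBPG (1.22), while Bin1 passed in none.

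Of 17 genes for the signals and factors that hold microglial identity, 3 rose and 1 fell with ATF3, 1 rose and 3 fell with ATF4, 10 rose and 1 fell with CEBPG, and 2 rose and 4 fell with CHOP. The transcription factor Irf8 rose with CEBPG (0.51, adjusted p = 0.00593) and fell with CHOP (-0.47, adjusted p = 0.00819). Mef2a fell with ATF4 (-0.73, adjusted p = 0.0148) and rose with CEBPG (0.48, adjusted p = 0.0375). Mef2c and Spi1, named after their values were seen, fell with CHOP (-1.58 and -0.69, adjusted p = 2.02e-06 and 0.00537). Mef2c averaged 169.9 CPM in the controls, 56.71 CPM with CHOP and 53.22 CPM with ATF3. Of 14 partners of the purine and fractalkine receptors, 3 rose and 1 fell with ATF3, 4 rose and 2 fell with ATF4, 8 rose and 1 fell with CEBPG, and 2 rose and 1 fell with CHOP. Cx3cl1, which encodes the ligand of Cx3cr1 and is made by neurons, rose with ATF3 (1.06, adjusted p = 4.66e-05), ATF4 (1.16, adjusted p = 0.000216) and CHOP (1.26, adjusted p = 5.02e-06) and was at 0.27 with CEBPG (adjusted p = 0.261). Nt5e, the ectoenzyme that makes adenosine from AMP, fell in all 4 (-3.09, -4.07, -1.52 and -2.67). Rod genes fell in the same 4 comparisons, as described further on, and which cells the Nt5e reads came from was not tested. Of the 9 general microglia genes, 1 rose and 1 fell with ATF3, 3 rose and 1 fell with ATF4, 4 rose and 1 fell with CEBPG, and none rose and 5 fell with CHOP. Among them Mpeg1, a perforin-like protein chosen for mention after its values were seen, fell with ATF3 (-1.43), ATF4 (-1.23) and CEBPG (-0.79), while Csf1r rose with ATF3 (0.35, adjusted p = 0.0369) and CEBPG (0.36, adjusted p = 0.0422).

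Markers of other immune cells moved with the groups, and their part in the results above was not tested. Of 15 disease-associated microglia genes, 5 rose and 1 fell with ATF3, 7 rose and none fell with ATF4, 13 rose and none fell with CEBPG, and 2 rose and 3 fell with CHOP. Apoe rose with ATF3, ATF4 and CEBPG (0.86 to 1.11) and was at -0.30 with CHOP (adjusted p = 0.154). These genes took 0.494% to 0.889% of the reads of the controls, 1.08% to 1.38% with ATF3 and 0.963% to 1.33% with ATF4. With CEBPG they took 1.20% to 1.45%, and with CHOP 0.482% to 0.706%. Most of these shares came from Apoe and Ctsd, at means of 3900 and 1910 CPM in the controls. Border macrophage genes, 10 in all, took 0.00628% to 0.0100% in the controls and 0.0172% to 0.0217% with CEBPG, and at most 0.0126% in the other groups. Of these genes 4 rose and 1 fell with CEBPG, and 2 rose and none fell with ATF3. None passed with ATF4, and 1 rose and 2 fell with CHOP. Lyve1 of this list averaged 17.3 CPM in the controls and 5.33 CPM with CEBPG. Of the 9 measured genes of monocytes and neutrophils, 7 rose and 1 fell with CEBPG, where they took 0.208% to 0.263% of the reads against 0.0554% to 0.0939% in the controls. Of the same genes, 2 rose and none fell with ATF3, none passed with ATF4, and 2 rose and 3 fell with CHOP. The 2 that rose with CHOP were Ccr2, a chemokine receptor of monocytes (1.59, adjusted p = 0.000732), and Plac8 (1.97, adjusted p = 0.000293). Lyz2 and Ly6c2 of the same list had lower means with CHOP (314 and 1.24 CPM) than in the controls (818 and 3.23 CPM). Lyz2, at 1950 CPM with CEBPG, made up most of the share of this list in every group. The shares of the 9 genes were 0.0751% to 0.0914% with ATF3, 0.0398% to 0.0756% with ATF4 and 0.0264% to 0.0470% with CHOP. All 11 T and NK lymphocyte genes rose with ATF3, CEBPG and CHOP and 10 rose with ATF4, with 0.159% to 0.234% of the reads with CEBPG, 0.0292% to 0.0462% with ATF3 or CHOP, 0.00327% and 0.0106% with ATF4 and at most 0.00192% in the controls. Of the markers that define these cells, the border macrophage gene Cd163 had no read in any group other than CEBPG. The neutrophil genes S100a8 and S100a9 had none with ATF4 or CHOP, and Retnlg had none in the controls or with ATF4 or CHOP. In all, 1 of the 9 measured monocyte and neutrophil genes had no read with CEBPG, and 4 had none with ATF4. Of the border macrophage genes, 2 had none with ATF4 and 2 had none with CHOP, Cbr2 among the latter. No lymphocyte gene was at 0 throughout a group. Genes of retinal cells moved as well, and their part was likewise not tested. Of the 10 ganglion cell genes, 3 rose and 4 fell with ATF3 (median -1.02), and 4 rose and none fell with ATF4 (0.92). With CEBPG 1 rose and 3 fell (-0.29), and with CHOP 2 rose and 3 fell (-0.58). Nefl, at a mean of 270 CPM in the controls, was the highest of them there. Rod genes took at least 3.33% of the reads of each control and at most 0.796% in the knockouts, and all 10 fell in each of the 4 comparisons against control. Of 10 amacrine cell genes, 9 rose with each knockout, with medians of 0.81 (CEBPG), 1.42 (ATF4), 1.49 (ATF3) and 1.82 (CHOP). Of 8 bipolar cell genes, all fell with CEBPG (median -1.62) and CHOP (-1.45), 2 fell and 1 rose with ATF3, and 3 fell and none rose with ATF4. Of 9 Müller glia genes, 5 fell and 1 rose with ATF3, 5 rose and none fell with ATF4, 6 fell and 1 rose with CEBPG, and 5 fell and 1 rose with CHOP.

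**Figure D4:**
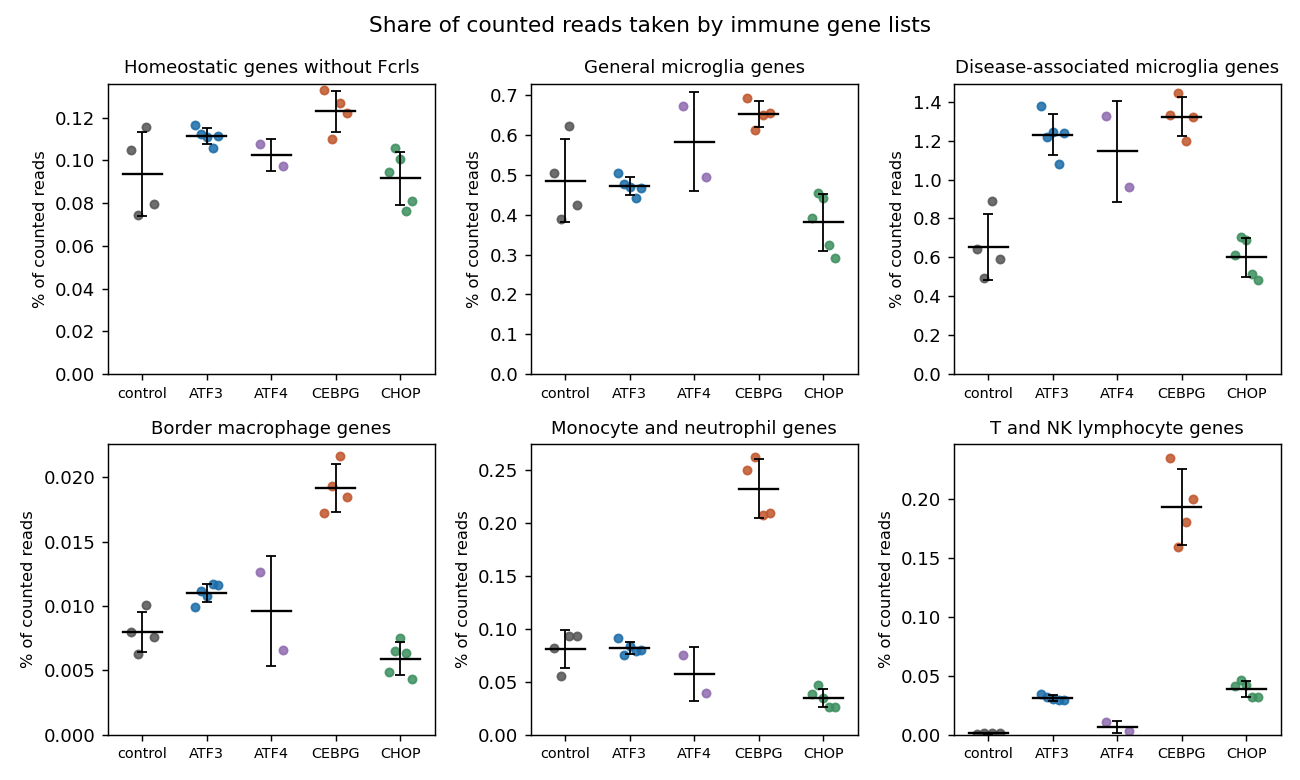
Share of counted reads, in percent from 0, taken by 6 gene lists in each library (points) with mean and SD (black). The CEBPG knockouts are highest for the monocyte and neutrophil list (0.208% to 0.263%) and the T and NK lymphocyte list (0.159% to 0.234%). Lyz2 makes up most of the monocyte and neutrophil share.

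Within groups the homeostatic genes varied together to different degrees. With each group's mean removed, the 36 pairs had a median Pearson correlation of 0.27 over the 20 libraries, 32 were above 0, and the range was -0.32 to 0.81. The closest pairs were Tmem119 with Cx3cr1 (0.81), P2ry13 with Cx3cr1 (0.77), Siglech with Olfml3 (0.75) and Tmem119 with Olfml3 (0.70). The neighbours P2ry12 and P2ry13 came next at 0.67, the same value as P2ry12 with Tmem119. Fcrls, with a median correlation of -0.00 with the other 8, and Sall1, with 0.10, followed the others least. All pairs share the libraries and their depth, so these values are descriptive. Of 12560 other genes with at least 5 CPM, the 10 most like the mean of the 9 included Cd53 (0.94), H2-D1 (0.89), Npc2 (0.89), C1qc (0.88), B2m (0.88), Clic1 (0.87), Capns1 (0.87), Rgs16 (0.86) and Ctss (0.86), where the median over all genes was 0.04.

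The authors' deposited table of log fold changes, taken here as log2, gives other values for the 9 genes. In the authors' deposited table all 9 lie below 0 for ATF3 (median -0.75) and for CHOP (median -1.08), 8 for CEBPG and 6 for ATF4. Fcrls is at -0.05, 0.35, 0.13 and -2.16 for ATF3, ATF4, CEBPG and CHOP in the authors' deposited table, with no FDR below 0.05. Only P2ry13 passed there, for ATF3 (-1.21, FDR 0.0136) and CEBPG (-0.60, FDR 0.0452) in the authors' deposited table. Over all genes the authors' deposited table has an FDR below 0.05 for 7.99% with ATF3, 22.1% with CEBPG, 5.77% with ATF4 and 7.30% with CHOP. The sign was opposite to the one found here in 6 of the 9 genes with ATF3 and in 7 with CEBPG. It was opposite in 4 with CHOP and in 3 with ATF4. The sources used here do not give the model, covariates and samples behind the authors' deposited table. The library that entered no group, titled as a control, had more CPM than the highest of the 4 controls for each of the 9 genes, from 1.07 times for Tmem119 to 22.5 times for Fcrls.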

How the data were processed

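RNA was sequenced from sorted retinal cells in 21 libraries, 20 of them in 5 groups that follow the sample titles. The authors deposited raw read counts per gene (whole numbers, 17164 genes), a table of log2 fold changes (the base is taken as 2) with p-values and FDR values, and a sample sheet with sex, batch and age, of which 43 columns were not used. Per the submitters' processing notes STAR, Picard, HTSeq, edgeR and the build mm10 were used. The sources used here do not give versions, the annotation or the strand setting.

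The counts were tested with edgeR 4.0.16 (R 4.3.3). filterByExpr (minimum count 10) kept 16797 genes, all 9 among them, and removed 367. Libraries were scaled by TMM, all 20 entered a single robust quasi-likelihood fit (glmQLFit, common biological coefficient of variation 0.407, 15 residual degrees of freedom), and 7 contrasts were tested with glmQLFTest at a Benjamini-Hochberg adjusted p below 0.05 over all genes. Every adjusted p comes from this test unless another scaling is named. Each SE is the absolute log2 fold change divided by the square root of the F statistic of the test. The 95% intervals multiply it by a t quantile on the 15 residual degrees of freedom alone. CPM are counts divided by the TMM-scaled library size. Pairs of libraries of a group differed beyond counting noise (chi-square per gene 12.9 to 64.6, for genes of 20 or more reads), so none was a copy. The alternatives were DESeq2 1.42.0, its size factors in edgeR, scaling to 9 general microglia genes, no filter, a replicate block, a fit of batch 3 alone and leaving out each library. The fit was tested on simulated data.

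The 9 genes and the 18 gene lists (186 genes, 182 matched) were chosen with earlier results of these data known. Named genes are the 9, up to 4 per list by mean CPM, the 10 most alike within groups, and genes whose span overlaps one of the 9. Mpeg1, Mef2c, Spi1, the markers named for having no reads in a group, and the neighbours of Fcrls were chosen after their values were seen. Some genes that this rule names are not reported here. Coordinates are from GENCODE for mm10, and promoter sequences from RefSeq (GRCm38.p6), matched by symbol for 7 genes.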

Additional observations from a re-analysis of the deposited data

Results flagged for a closer look

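Dixon's gap test over 36 groups of 4 or 5 libraries set 3 values apart, and chance sets apart about 1 in 20. P2ry13 was at 49.3 CPM in CHOP replicate 4, below the other CHOP libraries. Fcrls was at 149 CPM in ATF3 replicate 8 and at 24.3 CPM in CHOP replicate 2, each the lowest of its group and each still above every control.

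The library that entered no group exceeded the highest control for all 9 genes. It held 281 CPM of P2ry12, 181 of P2ry13, 740 of Cx3cr1 and 259 of Gpr34. Fcrls was at 318 CPM, Siglech at 228, Olfml3 at 405, Sall1 at 50.8 and Tmem119 at 344 CPM. All but Tmem119 also exceeded the highest of the 20 grouped libraries. The 9 genes took 0.270% of its reads. It is the only library of batch 4 in the sample sheet, with 33665965 counted reads.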

How the results depend on the processing

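Of the 3 called in ATF4 against control, 4 in CEBPG against CHOP and 3 in CHOP against ATF3, the replicate block left 0, 0 and 1, with 6 residual degrees of freedom. Same-numbered libraries did not deviate together (12 pairs, r from -0.13 to 0.08, 0 over 0.1). With group means removed from such small groups, these values cannot exclude that the numbers pair the libraries. Over all genes the block lowered the calls from 5251 to 1322, from 4478 to 517 and from 380 to 11 in these 3 comparisons, from 5608 to 3081 in CEBPG and from 5625 to 2719 in CHOP against control, and from 3419 to 1895 in CEBPG against ATF3. Scaling to the general microglia genes gave 4 calls in CHOP against control (35.5% of all genes called), 4 in CEBPG against ATF3 (29.1%) and 1 in CHOP against ATF3 (5.56%). Under it P2ry12 turned to 0.39 in CHOP against control and Cx3cr1 to -0.36 in CEBPG against ATF3. In CEBPG against CHOP P2ry12 turned to -0.49, P2ry13 to -0.68, Tmem119 to -0.63, Cx3cr1 to -0.13, Siglech to -0.11, Gpr34 to -0.07 and Olfml3 to -0.45. All-gene calls became 9352 there and 934 in CHOP against ATF3, where DESeq2 called 681 and leaving out single libraries gave 226 to 353. Without ATF4 replicate 1 the 5251 calls became 3371. The cause was not tested.

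With single libraries left out, the counts ran from 0 to 4 (ATF4), 2 to 5 (CEBPG), 3 to 4 (ATF3) and 1 to 1 (CHOP) against control, and from 2 to 3 (CEBPG against ATF3), 4 to 5 (CEBPG against CHOP) and 1 to 3 (CHOP against ATF3). An ATF4 library left alone was assumed to vary like the other groups. Of 170 such values for called genes, 141 stayed called and 29 did not, and none changed sign. DESeq2, its size factors in edgeR, no filter and the fit of batch 3 alone lost no call. Depth limits Fcrls most, at 61 to 166 reads per control library.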

Other observations

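Among the 11 measured genes within 500000 bases of Fcrls, chosen after the Fcrls values were seen, none was called in all the same comparisons and directions as Fcrls. Pear1, a receptor gene 484151 bases away, rose with ATF3 (2.92, SE 0.48, edgeR adjusted p = 4.50e-05), CEBPG (4.64, adjusted p = 1.86e-07) and CHOP (2.38, adjusted p = 0.000386) against control, and was higher with CEBPG than with ATF3 (1.72, adjusted p = 0.00368), the opposite of Fcrls. Like Fcrls it was higher with CEBPG than with CHOP (2.27, adjusted p = 0.000250). Dclk2, a kinase gene 329905 bases away, rose with ATF3 (0.97, adjusted p = 4.51e-05), ATF4 (0.84, adjusted p = 0.00227), CEBPG (0.64, adjusted p = 0.00431) and CHOP (0.98, adjusted p = 3.63e-05) against control and was called in no comparison between knockouts. Etv3, a transcription factor gene 261668 bases away, rose with CEBPG alone among the comparisons against control (0.84, SE 0.28, adjusted p = 0.0214). Fcrl1 and Fcrl5, of the same gene family as Fcrls and 112648 and 172034 bases away, had group means of at most 3.25 and 1.18 CPM and passed in none of the 7 comparisons.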
